A study of Mus musculus with 12 samples.

Results

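The genotype difference in peritoneal macrophages that had taken contact with antibody-coated platelets was measured in 6 of the 12 RNA libraries of the series. The libraries were chosen by their labels: 3 libraries labelled Mac-Ern1KO with R300-opsonized platelets (KO R300) were set against 3 libraries labelled Ern1fl/fl with the same platelets (WT R300). Both groups had 2 h of coculture, and R300 is an antibody to a platelet surface protein. The mice were 8 weeks old and male per the labels, and the cells were collected 3 days after intraperitoneal 3% thioglycollate, which recruits leukocytes to the peritoneum. All mice of the series carried the floxed Ern1 allele. The KO label adds deletion in macrophages, with no Cre driver named. The other 6 libraries, 3 WT blank and 3 KO blank, carry the treatment label Con, and whether uncoated platelets were present in them is not said there; they are used only beside the R300 values. Nothing in the labels ties a library to its own mouse, so whether p-values measure the spread between mice is not known. Of 35050 rows in the count table, 16546 genes had enough counts to be tested.

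Ern1 encodes IRE1α, a sensor in the membrane of the endoplasmic reticulum (ER). When unfolded proteins gather in the ER, its RNase domain removes a short intron from Xbp1 mRNA, and the spliced form encodes a transcription factor for genes of ER folding, translocation and secretion. The same RNase can cut other mRNAs at sites that resemble those of Xbp1, a process called regulated IRE1-dependent decay. The series title names Nr1d1, which encodes the circadian nuclear receptor and repressor REV-ERBα, as such a substrate, and names lysosomes as the compartment affected. Macrophages engulf antibody-coated platelets through Fc receptors and digest them in lysosomes, which is how platelets are lost in immune thrombocytopenia.

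The 6 R300 libraries held 28203400 to 35754700 counts (to 6 digits), and the spread between libraries was wide, with a common biological coefficient of variation of 0.267. Levels are given as CPM, the usual read rate of a gene relative to its library's TMM-scaled total, and differences as log2 of KO over WT with the standard error (SE) of the fit. Xist, the RNA that coats the inactive X chromosome and is made in female cells, went against the label male in 4 of the 6 libraries. Its level was 143, 0.0346 and 169 CPM in WT R300 1, 2 and 3 and 553, 575 and 0 CPM in KO R300 1, 2 and 3. Y-linked transcripts put the fraction of XX cells at 24.9% and 30.5% in WT R300 1 and 3, against 77.9% and 77.4% in KO R300 1 and 2. The libraries with Xist were also near copies of each other within a genotype: the median chi-square between libraries was 1.37 for WT R300 1 and 3 and 1.53 for KO R300 1 and 2, while the other pairs within the 4 groups gave 6.14 to 10.1 and counting noise alone gives 0.455. List medians and the differences of several genes are therefore also given in the libraries with Xist (KO R300 1 and 2 against WT R300 1 and 3) and in those without it (KO R300 3 against WT R300 2). In the first subset the XX share differs between the genotypes as well, and the second has 1 library a genotype. SDs, counts of groups that do not overlap, and p-values treat the near-copies as separate samples, unless the near-copies are said to be summed.

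The targeted gene did not separate the genotypes. Ern1 (chr11:106394650-106487852, minus strand, GRCm38) was at 204, 138 and 205 CPM in WT R300 1, 2 and 3 and at 235, 225 and 174 CPM in KO R300 1, 2 and 3. The groups overlapped, and the log2 difference was 0.21 (SE 0.18; edgeR adjusted p = 1). It was 0.17 in the libraries with Xist and 0.34 in those without, and within both subsets every KO library lay above every WT library (13.8% of all genes did). In blank cells the Ern1 difference was 0.38 (SE 0.18), and those groups overlapped too. The labels do not give the floxed exons, and a count over the whole gene does not check the loss of some of its exons. KO therefore stands for what the label says, and the direction of every difference rests on it.

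No gene passed the test. With edgeR at an adjusted p under 0.05, 0 of 16546 genes were called higher and 0 lower (0%). At an unadjusted p under 0.05 there were 324 genes (1.96%), where 827 would be expected by chance; 215 of them were lower in KO (1.3%) and 109 higher (0.659%). With each pair of near-copies summed to 1 sample, 108 of 17087 genes had an unadjusted edgeR p under 0.05. The DESeq2 Wald test called 12 of 14926 genes (0.0804%). Of these 10 fell, namely Lyz2, H2-M3, Trim30c, Eps8l1, B2m, H2-T10, H2-Q4, Xlr3b, Gbp6 and Slfn9, and 2 rose, the predicted genes Gm55594 and Gm47283. Among all genes tested, 51.4% had a log2 difference below 0 and the median was -0.006. The 3 KO libraries all lay below the 3 WT libraries for 641 genes (3.87%) and all above for 667 genes (4.03%), and 7.91% did either. Within both Xist subsets every KO library lay below every WT library for 14.2% of genes, and above it for 13.8%. These shares are the background for every list.

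Interferon-stimulated genes had lower values in KO than in WT as a group. Type I interferon binds the receptor IFNAR1 and IFNAR2, and signals through factors that include STAT2 and IRF9 and bind the interferon-stimulated response element in promoters of genes for antiviral defence. Of the 73 listed genes 72 were tested, and all 72 had a log2 difference below 0, with a median of -0.82 against -0.006 over all genes. None passed the edgeR test. The KO libraries all lay below the WT libraries for 30 of the 72 (41.7%, against 3.87% of all genes). The median was -0.91 in the libraries with Xist and -0.72 in those without. For 71 of the 72 every KO library lay below every WT library within both subsets (14.2% of all genes did); the exception was Samhd1, a dNTP hydrolase, with differences of -0.05 and -0.33. In bulk RNA, fewer cells of a type and less RNA per cell cannot be told apart.

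Promoters of this list carried the response element often. The motif searched was 2 copies of GAAA with any 2 bases between them (TTTC on the other strand), in RefSeq promoters of GRCm38.p6 from 250 bases before to 50 bases after the start of the gene. It was present for 32 of the 55 list members that matched a promoter (58.2%), against 3.92% of the 10974 tested genes that matched one. A match is a description of the letters and not a bound site. The promoters below belong to 4 genes described in the next paragraphs, with the motif in capitals, 5′ to 3′ on the strand of the gene; overlapping matches are counted separately.
B2m, chr2:122147437-122147736, plus strand, 1 match: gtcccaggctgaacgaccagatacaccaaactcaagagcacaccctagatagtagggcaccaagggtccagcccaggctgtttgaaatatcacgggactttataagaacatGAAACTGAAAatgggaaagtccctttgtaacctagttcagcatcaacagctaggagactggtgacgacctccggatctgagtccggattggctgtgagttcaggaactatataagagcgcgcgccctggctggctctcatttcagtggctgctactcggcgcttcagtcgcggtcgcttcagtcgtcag
Isg15, chr4:156200769-156201068, minus strand, 3 matches: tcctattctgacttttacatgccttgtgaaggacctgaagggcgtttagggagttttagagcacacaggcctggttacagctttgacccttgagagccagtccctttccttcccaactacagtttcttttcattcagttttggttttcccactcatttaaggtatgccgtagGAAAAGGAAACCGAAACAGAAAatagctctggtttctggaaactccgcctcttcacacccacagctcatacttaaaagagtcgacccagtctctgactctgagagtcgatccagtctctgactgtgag
Ifit3, chr19:34583279-34583578, plus strand, 2 matches: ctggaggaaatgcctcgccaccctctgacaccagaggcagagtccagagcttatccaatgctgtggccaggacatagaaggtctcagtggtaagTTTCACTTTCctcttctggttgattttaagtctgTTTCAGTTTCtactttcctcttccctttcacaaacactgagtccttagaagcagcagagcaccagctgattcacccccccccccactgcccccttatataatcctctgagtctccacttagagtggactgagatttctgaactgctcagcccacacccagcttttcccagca
Bst2, chr8:71537423-71537722, minus strand, 2 matches: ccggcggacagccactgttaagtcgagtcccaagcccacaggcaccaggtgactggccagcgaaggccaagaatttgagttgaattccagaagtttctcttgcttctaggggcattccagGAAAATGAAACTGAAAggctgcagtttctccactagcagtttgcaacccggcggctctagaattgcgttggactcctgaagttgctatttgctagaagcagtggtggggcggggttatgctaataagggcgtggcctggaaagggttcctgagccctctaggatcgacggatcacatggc

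The ligand genes Ifnb1, Ifna2, Ifna4 and Ifng had too few counts to be tested. The receptor genes differed little: Ifnar1 had a log2 difference of -0.08 (SE 0.09) and Ifnar2 one of -0.05 (SE 0.12), with overlapping groups. The members that transduce the signal lay lower in KO. Irf7, a transcription factor that amplifies interferon production, was at 123, 136 and 92.8 CPM in WT R300 1, 2 and 3 and at 42.6, 43 and 75.5 CPM in KO R300 1, 2 and 3. Every KO library was below every WT library, and among the KO libraries the one without Xist was the highest. The difference was -1.13 (SE 0.32; edgeR adjusted p = 1), or -1.33 with and -0.84 without Xist. Stat2 (-0.75, SE 0.36) and Irf9 (-0.49, SE 0.24) overlapped between the groups, and in each genotype the library without Xist was the highest.

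Effector genes differed in the order of their libraries. Isg15, a ubiquitin-like modifier, was at 37.5, 45.3 and 34.8 CPM in the WT libraries and 14.5, 15.8 and 30.9 CPM in the KO libraries, a difference of -0.94 (SE 0.33). Its groups did not overlap, with the KO library without Xist just under the lowest WT library. Ifit3, which binds viral RNA complexes, was at 16.6, 43.2 and 13.4 CPM in WT and 4.48, 3.93 and 22.9 CPM in KO, a difference of -1.22 (SE 0.76). Here the genotypes overlapped, since KO R300 3 was above WT R300 1 and 3. Within the Xist subsets the difference of Ifit3 was -1.81 and -0.91. Bst2 (tetherin, which holds budding virions on the cell) was at 64.6, 56.1 and 60.4 CPM in WT and 43.1, 38.3 and 41.5 CPM in KO, a tight separation with a difference of -0.56 (SE 0.13), or -0.62 with and -0.43 without Xist. For Bst2 the library without Xist was not the highest in either genotype. Ly6e, a surface protein that restricts viral entry, showed the same separation, from 256 ± 26.5 CPM to 177 ± 2.49 CPM (SD, n = 3). Slfn1 (-0.85, SE 0.20), Ifi44 (-1.98, SE 0.47) and Oas2 (-1.11, SE 0.37) also had no overlap. None of the 72 listed genes passed DESeq2. Relatives of listed genes that are not on the list themselves, Slfn9 (-0.81, SE 0.17), Gbp6 (-1.37, SE 0.31) and Trim30c (-1.42, SE 0.26), did pass it and did not overlap either. Schlafen, guanylate-binding, Oas and Trim30 genes have near-identical copies, and how reads were divided among them is uncertain.

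**Figure D1:**
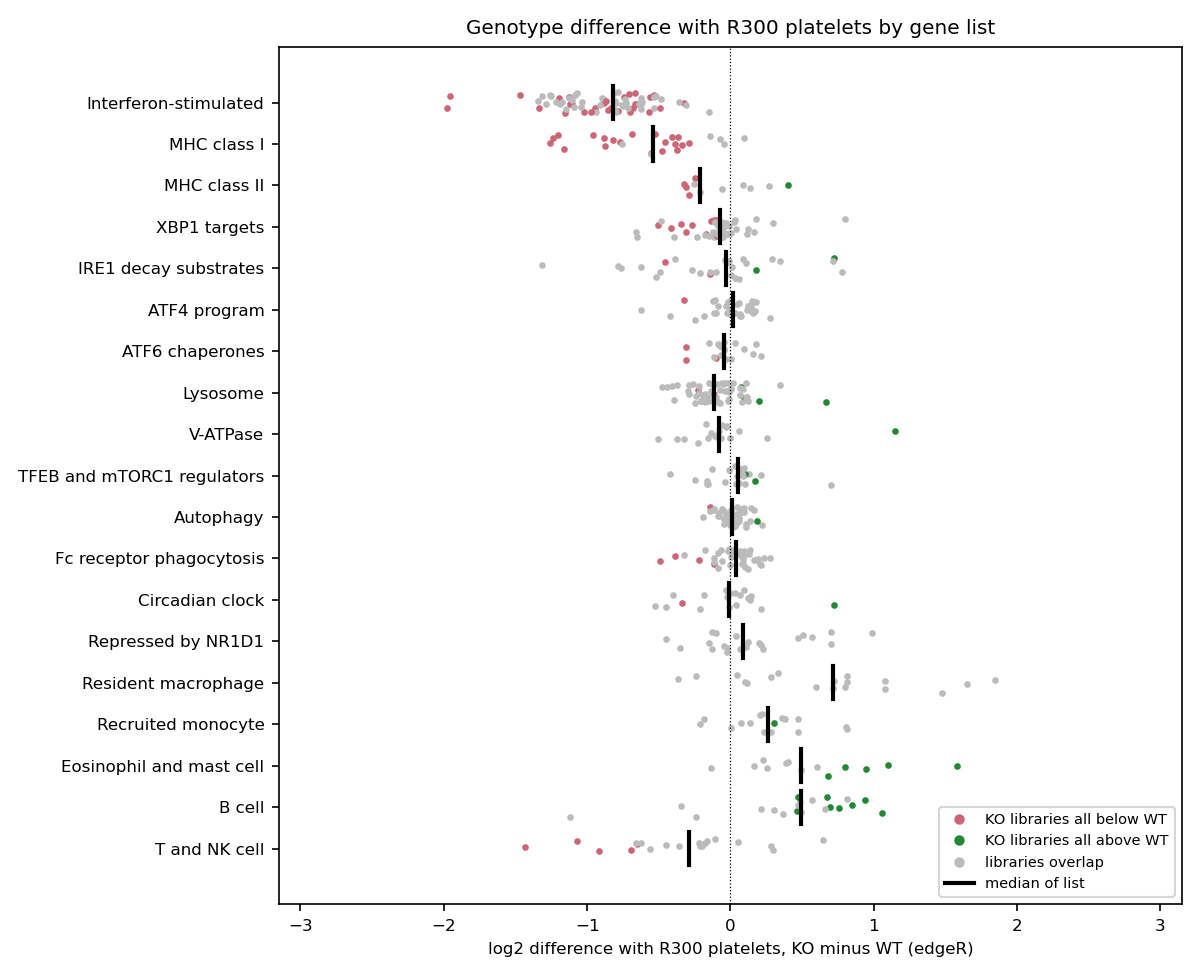
Log2 difference of KO against WT with R300 platelets (horizontal axis, edgeR) for each tested member of 19 gene lists (rows); each point is a gene, colored by whether the 3 KO libraries all lay below or all above the 3 WT libraries, and the black bar is the median of the list. The interferon-stimulated list sits wholly below 0 with a median of -0.82, the MHC class I list has a median of -0.54, and most other lists straddle 0.

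MHC class I genes, which present peptides on the cell surface and whose promoters respond to interferon, had lower values in KO too. Of 28 listed genes 26 were tested, 25 had a difference below 0 and the median was -0.54. The groups did not overlap for 20 of 26 (76.9%, against 3.87% of all genes). Within both Xist subsets 23 of 26 separated downward (14.2% of all genes did), with medians of -0.56 and -0.45. None passed edgeR, and H2-M3, H2-Q4 and B2m passed DESeq2. The motif above was in the promoters of 4 of the 20 members that matched one (20%, against 3.92% of all tested genes that matched one).

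The light chain and the classical heavy chains differed by similar amounts. B2m (chr2:122147686-122153083), the light chain of all class I molecules, was at 1850, 1660 and 1780 CPM in WT R300 1, 2 and 3 and at 1220, 1190 and 1250 CPM in KO R300 1, 2 and 3. The KO libraries lay in a narrow band well below the WT libraries, and the difference was -0.53 (SE 0.11; edgeR adjusted p = 1, DESeq2 adjusted p = 0.00874), or -0.59 with and -0.41 without Xist. The classical heavy chains H2-K1 (1850, 1500 and 1750 against 1330, 1180 and 1150 CPM; -0.48, SE 0.14) and H2-D1 (4110, 3830 and 3860 against 3140, 2850 and 3040 CPM; -0.39, SE 0.11) also separated fully. H2-M3 (chr17:37270220-37274484), which presents formylated peptides, was at 24.7, 26 and 23.5 CPM in WT and 16.6, 16.8 and 17.1 CPM in KO. Its difference of -0.55 (SE 0.09) had the second lowest p of all genes (edgeR adjusted p = 0.390, DESeq2 adjusted p = 0.000107). It was -0.52 with and -0.60 without Xist. Among non-classical heavy chains, H2-Q5 was at 37.4, 34 and 35.2 CPM in WT and 16.7, 15.1 and 13.4 CPM in KO (-1.24, SE 0.40). H2-Q4 (-0.82, SE 0.17) and H2-T22 (-0.77, SE 0.18) separated as well, as did H2-T10 (-0.99, SE 0.20), which is not on the list and passed DESeq2. Class I genes are near-identical copies, and 19.1% of H2-Q4, 27.1% of H2-T10 and 29.4% of H2-T22 overlaps a gene on the other strand, which an unstranded kit cannot resolve.

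Most genes that load class I molecules had lower values as well. Tap1, a subunit of the peptide transporter, was at 95.1, 121 and 86.3 CPM in the WT libraries and 47.2, 45.2 and 72.5 CPM in the KO libraries (-0.88, SE 0.25). Psmb9, an immunoproteasome subunit on the opposite strand beside it, was at 19.9, 21.3 and 19.9 CPM against 10.5, 12.3 and 15.2 CPM (-0.69, SE 0.22). Neither overlapped between the groups. Nlrc5, the transactivator of class I genes, did overlap (62.5, 91.5 and 56.7 against 32, 34.1 and 58.4 CPM; -0.76, SE 0.30). The general ER chaperones on the list differed least: Canx, Pdia3 and Calr had log2 differences of -0.08, -0.04 and 0.10. MHC class II genes, which present peptides to helper T cells, had a smaller median of -0.21 over 11 genes, which was -0.34 with Xist and -0.03 without; H2-Aa was at 812, 728 and 774 CPM against 593, 556 and 695 CPM (-0.33, SE 0.17).

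**Figure D2:**
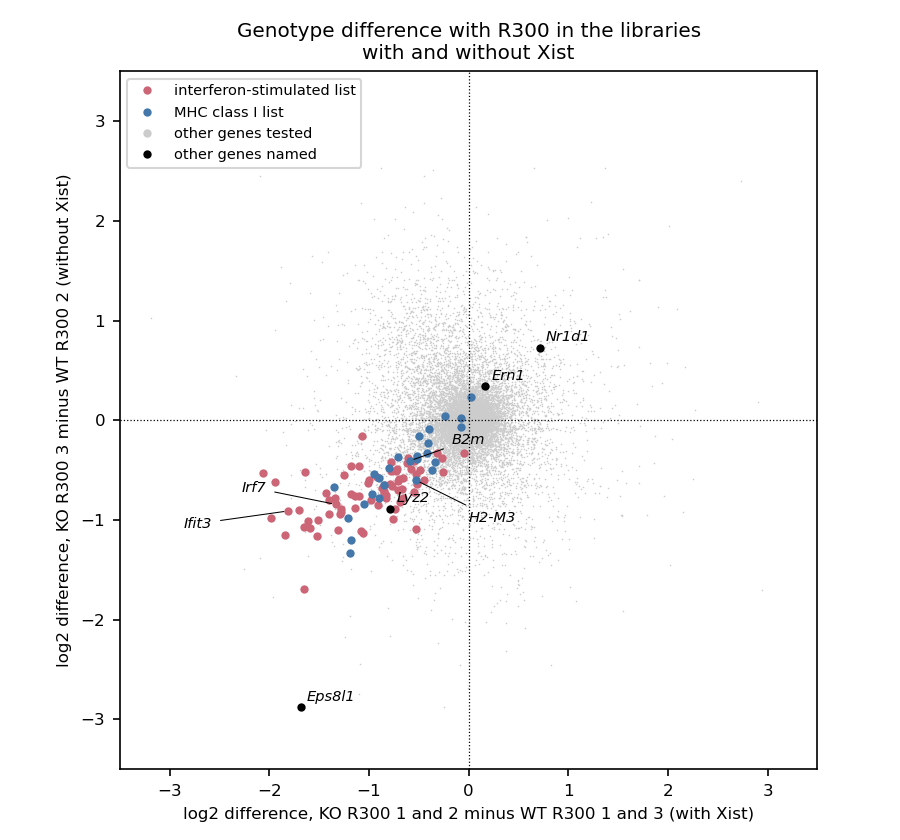
Log2 difference of KO against WT with R300 platelets in the libraries with Xist (horizontal axis, KO R300 1 and 2 against WT R300 1 and 3) and in those without Xist (vertical axis, KO R300 3 against WT R300 2); each point is a gene, with interferon-stimulated and MHC class I genes colored and other named genes in black, and 4 genes beyond 3.5 are not drawn. All 72 interferon genes lie below 0 on both axes, as do 23 of the 26 class I genes, Lyz2 and Eps8l1.

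Lyz2 had the lowest p of all genes. It encodes lysozyme M, one of the most abundant transcripts of macrophages, and it is the locus that carries Cre in the LysM-Cre line; the labels name no driver, and whether these mice carry that one was not tested. Lyz2 (chr10:117277331-117282321, minus strand) was at 12700, 12700 and 12200 CPM in WT R300 1, 2 and 3 and at 7250, 7130 and 6890 CPM in KO R300 1, 2 and 3. The KO libraries held 0.566 times the WT level with almost no spread within either genotype, though WT R300 1 and 3 and KO R300 1 and 2 are near-copies. The log2 difference was -0.82 (SE 0.11; edgeR adjusted p = 0.308, DESeq2 adjusted p = 1.83e-15), and it was -0.79 with Xist and -0.89 without. In blank cells it was -0.95 (SE 0.12), and the edgeR interaction gave an unadjusted p of 0.432. Other genes near the top of the lower side were not interferon genes. Eps8l1, an actin regulator of the EPS8 family, was at 8.21, 10.9 and 7.93 CPM in WT and 2.66, 2.23 and 1.4 CPM in KO (-2.11, SE 0.44; -1.68 with and -2.88 without Xist). Snd1, a nuclease that acts on RNA, was at 130, 135 and 126 CPM against 99, 92.9 and 97.1 CPM (-0.43, SE 0.10). In blank cells Eps8l1 differed by -2.03 (SE 0.43) and Snd1 by -0.36 (SE 0.10). Xlr3b, an X-linked lymphocyte-regulated gene chosen after its values were seen, was at 4.91, 1.97 and 5.15 CPM against 1.1, 0.85 and 0.636 CPM (-2.22, SE 0.54).

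**Figure D3:**
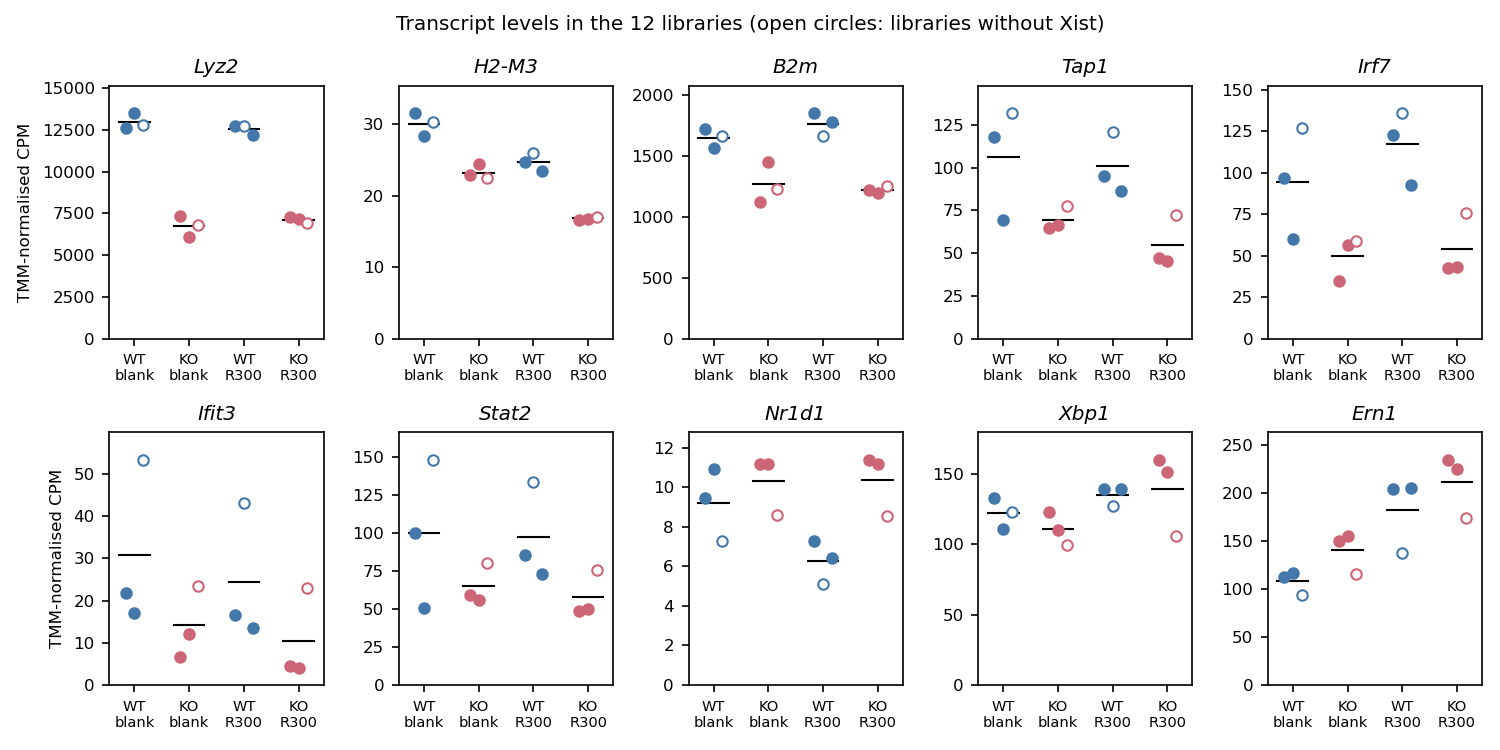
TMM-normalised CPM (vertical axis, linear from 0) of 10 genes in the 4 groups of 3 libraries; each circle is a library, open where Xist is absent, and the bar is the group mean. Lyz2, H2-M3 and B2m separate the genotypes both in blank cells and with R300, and Nr1d1 is lowest in the WT R300 libraries at 5.12 to 7.28 CPM. Among the R300 libraries of each genotype, Irf7 and Ifit3 are highest in the library without Xist.

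On the higher side no gene passed edgeR either, and the lowest p belonged to predicted genes. Gm55594 was at 114, 133 and 118 CPM in the WT libraries and 326, 265 and 473 CPM in the KO libraries (1.55, SE 0.27; edgeR adjusted p = 0.708). Gm47283, which GENCODE places on chromosome Y, was at 162, 182 and 164 CPM against 437, 426 and 662 CPM (1.59, SE 0.29; edgeR adjusted p = 0.708). Both were chosen because DESeq2 called them, and both were higher in every KO library with and without Xist. Copies of housekeeping genes formed part of the list: Rps3a2 and Rps3a3 are related to the ribosomal protein gene Rps3a1, and Hspd1-ps3 is a pseudogene of the chaperonin Hspd1. Rps3a2 was at 5.47, 5.89 and 4.6 CPM in WT and 36, 34.8 and 141 CPM in KO (3.73, SE 1.17). In blank cells Rps3a2 overlapped between the genotypes, at 4.33, 68.5 and 3.63 CPM in WT and 27.2, 32.3 and 143 CPM in KO. A high level was thus also found in a WT library. Reads of such copies and of their parents are hard to tell apart, so these counts are uncertain.

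The other genes of lowest p on this side had varied roles. Pld1, a phospholipase of membrane traffic, was at 26.1, 26 and 25 CPM in the WT libraries and 46.2, 42.5 and 28.4 CPM in the KO libraries (0.60, SE 0.16), with the KO library without Xist close to WT: the difference was 0.79 with and 0.13 without Xist. Tbxas1, thromboxane synthase, was at 115, 134 and 114 CPM against 162, 149 and 160 CPM (0.37, SE 0.12). Il1rap, the accessory chain of the interleukin-1 receptor, was at 17.5, 20.7 and 18.4 CPM against 24.3, 23.2 and 22.7 CPM (0.31, SE 0.10). These groups did not overlap, nor did those of Bmx, a Tec family kinase at 0.406 ± 0.0887 CPM against 1.18 ± 0.214 CPM (SD, n = 3). Hdac9 (a class IIa histone deacetylase, 0.63, SE 0.18), Il4 (0.84, SE 0.24), Tmem38a (an ER cation channel, 0.90, SE 0.27) and Taf9b (a TFIID-related subunit, 0.53, SE 0.17) were also among the 15 lowest p on this side, as were the mast cell genes below. Bmx and Taf9b lie on chromosome X, and the XX share differs between the genotypes in the libraries with Xist; their differences were 1.38 and 0.59 with Xist and 1.24 and 0.38 without.

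The arm of the unfolded protein response that runs through XBP1 showed small differences. Xbp1 itself was at 139, 127 and 139 CPM in WT R300 1, 2 and 3 and at 160, 151 and 106 CPM in KO R300 1, 2 and 3, a difference of 0.05 (SE 0.15). The sign of that difference was 0.17 with Xist and -0.26 without, so its direction depends on the libraries. Counts per gene do not tell spliced from unspliced Xbp1 mRNA. Of 50 XBP1 targets, all tested, 40 had a difference below 0, with a median of -0.07 in all libraries and in both Xist subsets. The groups did not overlap for 10, all lower in KO (20%, against 3.87% of all genes), and 22 separated downward within both subsets (14.2% of all genes did). In blank cells the list had a median of -0.07 with 33 of 50 below 0. There 8 separated downward, where 1.96% of all genes did so, and 0 upward.

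The members of lowest p build the entry to the secretory pathway. Ostc, a subunit of the oligosaccharyltransferase, was at 42.5, 38.6 and 41.6 CPM in the WT libraries and 32.2, 32.2 and 32.1 CPM in the KO libraries (-0.35, SE 0.08). Spcs2, of the signal peptidase, was at 81.5, 87 and 81.1 CPM against 68, 70.4 and 69 CPM (-0.27, SE 0.08). Sec61b, of the translocon, was at 41.1, 33.8 and 41.3 CPM against 31, 27.8 and 28.3 CPM (-0.42, SE 0.14). The protein disulfide isomerase Pdia6 (-0.31, SE 0.13) likewise had no overlap. Nor did P4hb, another disulfide isomerase, which is on no list and was chosen after its values were seen (566, 525 and 572 against 448, 460 and 454 CPM; -0.29, SE 0.09). None of these passed edgeR or DESeq2, and in Sec61b, with the largest difference of them, KO was at 0.75 times WT. Over 18 ATF6 chaperones the median was -0.04. Of these, 3 separated downward (16.7%, against 3.87%), namely Pdia6, Manf (-0.31, SE 0.13) and Dnajb11 (-0.10, SE 0.07). Within both Xist subsets 8 of the 18 did so (14.2% of all genes did). Pdia6 and Dnajb11 are on the XBP1 list too. Over 32 genes of the ATF4 program the median was 0.02, with 1 separated downward (3.12%) and 0 upward.

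Nr1d1 had higher values in every KO library than in every WT library. It was 1 of 21 tested clock genes to separate upward (4.76%, against 4.03% of all genes), and 1 other separated downward (4.76%, against 3.87%), shares near the background. IRE1 cuts Xbp1 mRNA at both ends of the intron, each within a stem loop. CTGCAG is the core of the cut site at 1 end and of many sites described in decay substrates. Cut sites with other letters were not searched. The sites in coding transcripts of GENCODE M21 (GRCm38) are shown with CTGCAG in capitals, to set Nr1d1 beside Xbp1. For Xbp1 the same site lies in all its coding transcripts, and Nr1d1 has 1 coding transcript.
Xbp1, coding sequence, chr11:5524302-5524307, plus strand: ctatgtgcacctCTGCAGcaggtgcaggcc
Nr1d1, 5′ UTR, chr11:98775044-98775049, minus strand: gcatccggtgcaCTGCAGagacccgactct
Nr1d1, 5′ UTR, chr11:98775001-98775006, minus strand: tagccagaactgCTGCAGgctgattcttca
Nr1d1, 5′ UTR, chr11:98774913-98774918, minus strand: ccttctggagggCTGCAGtatagccacccc
Nr1d1, coding sequence, chr11:98769176-98769181, minus strand: acaacctacagtCTGCAGgagctcggtgcc
Nr1d1, coding sequence, chr11:98769049-98769054, minus strand: tggtgcttgtctCTGCAGaccgctcgggaa

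The Nr1d1 transcript held 5 such sites and that of Xbp1 held 1, but 70.9% of 58797 protein-coding transcripts hold at least 1, so the letters alone single out neither. Nr1d1 (chr11:98767932-98775333, minus strand) was at 7.28, 5.12 and 6.42 CPM in WT R300 1, 2 and 3 and at 11.4, 11.2 and 8.55 CPM in KO R300 1, 2 and 3. Every KO library was above every WT library, with means of 6.27 ± 1.08 and 10.4 ± 1.59 CPM (SD, n = 3). The log2 difference was 0.73 (SE 0.20; edgeR adjusted p = 1, DESeq2 adjusted p = 0.396), and it was 0.71 with Xist and 0.73 without. In blank cells the difference was 0.16 (SE 0.20) and the groups overlapped, and the difference of the differences did not pass (edgeR interaction, adjusted p = 1, unadjusted 0.0739). Of the gene, 8.55% overlaps Thra on the other strand.

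Other genes tied to IRE1 decay or to REV-ERBα showed no common direction. Over 28 tested genes described as substrates of IRE1 decay the median was -0.03, with 12 differences above 0 and 16 below; 2 had all KO libraries above WT (7.14%, against 4.03% of all genes) and 2 had them all below (7.14%, against 3.87%). Nr1d1 had the lowest p of that list. The next were Tapbp (-0.45, SE 0.18), which loads class I molecules, and Rnf213 (-0.76, SE 0.33), an interferon-responsive ubiquitin ligase, both with lower values in KO. Over 21 clock genes the median was -0.01. Of 22 genes described as repressed by NR1D1, 13 had values above 0 and 9 below; the median of 0.09 was 0.16 with Xist and 0.01 without, no group pair separated, and the member of lowest p was the chemokine receptor gene Cx3cr1 at 15.7, 24.7 and 13.3 CPM against 21.3, 21 and 31.9 CPM (0.47, SE 0.42).

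Lysosomal genes were highest in the libraries without Xist of either genotype. Over 60 tested genes for lysosomal hydrolases and membrane proteins 45 had a difference below 0 and the median was -0.12, but it was -0.17 with Xist and -0.003 without. All KO libraries lay above WT for 4 of the 60 (6.67%, against 4.03%) and below for 2 (3.33%, against 3.87%). The summed level of the list was 51600 to 54000 CPM in WT R300 1 and 3 and 42000 to 42300 CPM in KO R300 1 and 2, against 70800 CPM in the WT library without Xist and 68600 CPM in the KO one. The cathepsin gene Ctsb showed it: 11600, 14500 and 11000 CPM in WT and 8220, 8290 and 14400 CPM in KO, a difference of -0.26 (SE 0.27). Ctsd (-0.14, SE 0.25) and the membrane protein gene Lamp1 (-0.13, SE 0.19) had the same order of libraries, and for these 3 genes the sign changed once the XX share was a covariate. The members of lowest p were the cathepsin Ctsf (0.67, SE 0.27), the sulfatase Arsb (0.20, SE 0.10) and the cholesterol carrier Npc2 (-0.37, SE 0.20).

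The proton pump that acidifies the lysosome behaved alike. Over 20 V-ATPase genes the median was -0.08, or -0.13 with Xist and 0.01 without. Tfeb, the transcription factor that drives lysosomal genes, was at 27.4, 55.3 and 26.4 CPM in the WT libraries and 22.4, 21.9 and 47.3 CPM in the KO libraries (-0.25, SE 0.40), a difference that was 0.19 without WT R300 2. The median was 0.05 over 22 genes of the TFEB family and of mTORC1 control at the lysosome, and 0.01 over 44 autophagy genes, and none of their members passed either test.

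Genes of uptake through Fc receptors had a median of 0.04 over 40 genes, with 25 above 0 and 15 below; 4 had no overlap, all lower in KO (10%, against 3.87%). The activating receptor gene Fcgr1 was at 63.5, 67.1 and 58.2 CPM in the WT libraries and 42.1, 44.1 and 58 CPM in the KO libraries (-0.39, SE 0.27), and the last value nearly touched the WT range. Fcgr4 was at 30.6, 29.9 and 28.8 CPM against 24.1, 24.6 and 28 CPM (-0.22, SE 0.25). Fcgr3 (0.20, SE 0.15) and the inhibitory receptor gene Fcgr2b (0.28, SE 0.22) overlapped. Src, a kinase that phosphorylates receptor tails, was at 14.4, 17 and 20.5 CPM against 11, 12.5 and 13.3 CPM (-0.49, SE 0.20). Axl, a receptor for apoptotic cells on another list, was at 168, 167 and 174 CPM against 141, 148 and 132 CPM (-0.27, SE 0.09, and -0.29, SE 0.09, in blank cells). None of these passed edgeR or DESeq2.

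Markers of other cells differed with the genotype label, the Xist status or both, and their part in the differences above was not tested. The macrophage identity list was measured whole, 22 of 22, with a median of -0.03, 8 genes above 0 and 14 below. Its summed level was 31500 to 34700 CPM for WT and 25400 to 27500 CPM for KO with R300, a sum to which Lyz2 contributes much. Resident peritoneal macrophage markers had a median of 0.72 over 18 genes and no separated member, and their sum was 1250, 378 and 1200 CPM in WT R300 1, 2 and 3 against 1680, 1790 and 425 CPM in KO R300 1, 2 and 3. Prg4, a secreted lubricin, gave 71.8, 13.3 and 65.7 CPM against 245, 269 and 29.3 CPM, so that the libraries without Xist were low in both genotypes. Mast cell and eosinophil markers had a median of 0.50 over 13 tested of 18 genes, with 5 separated upward (38.5%, against 4.03%). The median of this list was 0.62 with Xist and 0.21 without. In blank cells it was 0.77, with 4 separated upward, where 1.74% of all genes did so. The mast cell tryptase Tpsab1 was at 4.4, 5.02 and 4.85 CPM in WT and 20.8, 15.2 and 6.55 CPM in KO (1.58, SE 0.42; 1.94 with and 0.38 without Xist), and its relative Tpsb2 at 3.86, 3.25 and 5.06 against 10.1, 6.94 and 6.42 CPM (0.94, SE 0.26); the copies are alike and their counts uncertain. Cpa3, a mast cell carboxypeptidase, differed by 1.10 (SE 0.38).

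B cell markers had a median of 0.49 over 20 genes with 8 separated upward (40%, against 4.03% of all genes). That median was 0.66 with Xist and 0.19 without. Their sum was 115 to 133 CPM for WT and 144 to 185 CPM for KO with R300. T and NK cell markers had a median of -0.29 over 20 genes with 5 separated downward (25%, against 3.87% of all genes). Their sums were 476 to 615 CPM against 395 to 559 CPM. Ccl5, a chemokine of that list, was at 9.96, 10 and 10.5 CPM against 5.24, 4.67 and 8.87 CPM (-0.69, SE 0.30). Platelet transcripts had a median of -0.005 over 14 tested of 20 genes and sums of 233 to 257 CPM for WT against 253 to 266 CPM for KO. None of the markers passed edgeR.

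Interferon and class I genes also had lower values in KO among the blank cells. In blank cells, KO against WT, the interferon list had a median of -0.58 with 72 of 72 below 0, and the class I list one of -0.36 with 24 of 26 below 0. The groups did not overlap for 8 and 6 of them, all lower, where 1.96% of all genes did so (1.74% upward). The edgeR test called 0 genes in blank cells (0%; 181 at an unadjusted p under 0.05, 1.09%) and 0 for the difference of the differences (0%; 95 at an unadjusted p under 0.05, 0.574%). No gene was thus shown to differ between genotypes with R300 platelets more or less than in blank cells. Whether R300 and blank libraries came from the same mice is not stated. By Y-linked transcripts the XX share was 31.0%, 67.8% and 1.60% in WT blank 1, 2 and 3. It was 80.3%, 66.9% and 5.17% in KO blank 1, 2 and 3. The blank groups thus also mix libraries of unlike XX share, and its part in the blank differences was not tested.

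**Figure D4:**
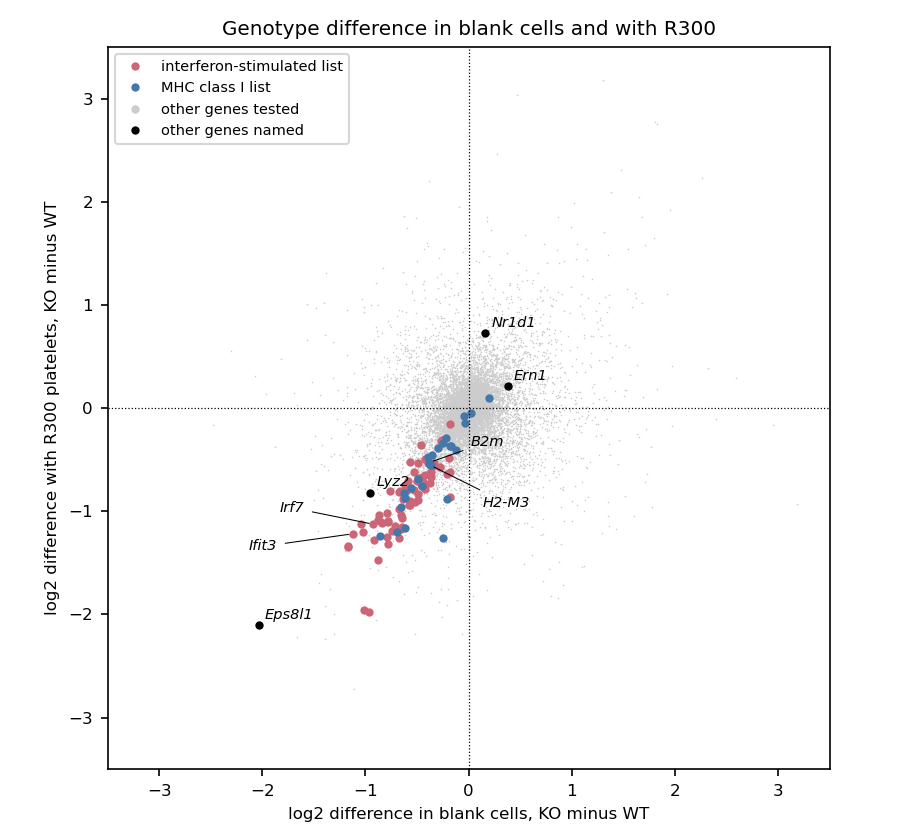
Log2 difference of KO against WT in blank cells (horizontal axis) and with R300 platelets (vertical axis), each over 3 libraries a group with no library in common; each point is a gene, colored for the interferon-stimulated and MHC class I lists, and 5 genes beyond 3.5 are not drawn. The interferon genes lie below 0 on both axes, with medians of -0.58 and -0.82, and Lyz2 lies at -0.95 and -0.82.

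A fit of the 6 R300 libraries alone, with a term for those without Xist, was added after the data were seen. It called 303 of 15597 genes lower (1.94%) and 171 higher (1.1%), among them 53 of the 72 interferon genes, 18 of the 26 class I genes, 7 of the 50 XBP1 targets and 8 of the 60 lysosomal genes as lower, and Nr1d1 as higher (edgeR adjusted p = 0.00846 in that fit). Of its 3 residual degrees of freedom, 2 come from the near-copies named above, so its p-values are too small if those are not separate samples. With each pair of near-copies summed to 1 sample the same model called 45 lower and 10 higher, and Nr1d1 was no longer called (edgeR adjusted p = 0.175).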

How the data were processed

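Poly(A)-selected RNA of peritoneal macrophages was sequenced from an unstranded kit, per the labels' protocols. Per the submitters' processing notes, the tools were HISAT2 2 and featureCounts 2.0.3 on mm10, after fastp 0.23.4 and FastQC 0.12.1; DESeq2 1.42.0 is named too. The values deposited by the authors were raw counts per gene symbol. Of 35050 rows, 102 had no symbol (0.0232% to 0.0328% of a library's counts) and were left out; 18 symbols had 38 rows. The 12 sample files held the same counts as the table.

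Counts were tested with edgeR 4.0.16 in R 4.3.3: TMM, filterByExpr on the 4 groups, a robust quasi-likelihood fit of all 12 libraries with 1 mean per group, and Benjamini-Hochberg adjustment over 16546 genes, called under 0.05, two-sided. The fit was tested on simulated counts drawn independently for each library. These held no near-copies and no Xist split within groups, so that test does not cover either feature. Alternatives were DESeq2 1.42.0, limma 3.58.1 voom, other scalings, filters and library choices, and terms for Xist. A single value of 3 libraries against 3 cannot give an exact permutation p under 0.1. A log2 difference within an Xist subset has 0.1 CPM added to each level.

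Named genes are Ern1, Xbp1, Nr1d1, the 15 of lowest p in each direction (mean count of at least 20, groups that do not overlap, no predicted symbol, not on the list of X inactivation and Y-linked genes), and the 3 of lowest p in each of 46 lists. Xist, Irf7, Stat2, Irf9, Ifit3, Oas2, Isg15, Ifnar1, Ifnar2, Tap1, Psmb9, Nlrc5, H2-K1, H2-D1, H2-Q5, Xlr3b, P4hb, Lamp1, Ctsd, Ctsb, Tfeb, Fcgr2b, Fcgr3, Fcgr4, Gm55594, Gm47283 and the ER chaperones of the class I list were chosen after their values were seen. Some genes these rules name are not reported here. The comparison and the lists were chosen with earlier results of these data known. Positions are of GENCODE M21 (GRCm38, the assembly of mm10); promoters are from RefSeq.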

Additional observations from a re-analysis of the deposited data

How the results depend on the processing

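Depth as a limit was not tested; the named genes Camp and Cd209a had mean counts of 5.33 and 15 in the R300 libraries. With R300, edgeR called 0 genes under every scaling, with limma-voom, with the XX share or an Xist term over 12 libraries, and under the replicate block (0 higher, 0 lower). The replicate numbers do not pair the samples: same-numbered WT and KO R300 libraries had correlations of 0.32, -0.60 and -0.51 in their deviations. Leaving out any of the 12 libraries gave 0 to 0 calls in each of the 3 comparisons. Counts that differed with R300 were 2 higher and 10 lower with DESeq2, 1 lower with no filter on low counts, 171 higher and 303 lower in the 6 R300 libraries with an Xist term, 10 and 45 with near-copies summed as well, and 27 and 84 with DESeq2 and an Xist term. In blank cells 2 were lower with DESeq2, 1 each with limma-voom, no filter, an Xist term and the XX share, and 7 higher and 9 lower with DESeq2 and an Xist term, which gave 1 higher for the difference of differences. The terms named last in each case (6 libraries, summed near-copies, DESeq2 with Xist) were chosen after seeing the data. The cause was not tested.

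With the XX share as a covariate the sign turned for Xbp1 (-0.096), Ctsb (0.012), Lamp1 (0.073), Ctsd (0.143) and Tfeb (0.151). Xbp1 also turned with near-copies summed (-0.022) and with an Xist term beside that (-0.045); leaving out 1 library it ran from -0.069 to 0.211. Over the same omissions Ifnar2 ran from -0.114 to 0.018 and Tfeb from -0.707 to 0.185. Medians of lists that moved by more than the spread between libraries were, in the libraries with Xist alone, 0.019 for IRE1 and ER stress sensors, 0.156 for Genes described as repressed by NR1D1, -0.341 for MHC class II, 0.416 for Recruited monocyte, 0.079 for Platelet, 0.119 for Neutrophil, 0.074 for Dendritic cell, and -1.612 for X inactivation and Y-linked, and, in those without Xist alone, -0.082 for IRE1 and ER stress sensors, 0.093 for ATF4 program, -0.063 for Fc receptor phagocytosis, -0.092 for Circadian clock, 0.006 for Genes described as repressed by NR1D1, -0.03 for MHC class II, -0.126 for NF-kappaB subunits and feedback, 0.067 for Oxidative phosphorylation, -0.092 for NADPH oxidase, 0.359 for Cell cycle, -0.09 for Macrophage identity, 0.015 for Recruited monocyte, 0.586 for Neutrophil, 0.206 for Eosinophil and mast cell, 0.192 for B cell, -0.449 for T and NK cell, 0.791 for Mesothelial cell and fibroblast, -0.03 for X inactivation and Y-linked, and 0.017 for Escapees of X inactivation. The other medians, those of the interferon and class I lists included, moved by less than that spread in both subsets, with library totals and with an Xist term, as did every median with the last 2 settings. That spread was taken over R300 libraries with and without Xist together, so it is wide for lists that vary with Xist. It cannot show that such a list is stable. The erythroid list, at -0.537 with Xist and 0.44 without, and the lysosome list, at -0.166 and -0.003, counted as not moved.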

Other observations

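Genes of alternative activation, the macrophage program driven by interleukin-4, had a median difference of 0.23 over 25 tested genes with R300 platelets, or 0.19 in the libraries with Xist and 0.05 in those without. Of the 25, 16 had a difference above 0 and 9 below. In 3 of them every KO library lay above every WT library (12%, against 4.03% of all genes). Among these were the chitinase-like gene Chil3 (0.31, or 0.42 with and 0.05 without Xist) and the lectin gene Cd209a (0.83). Cd209a was at 0.273 to 0.485 CPM for WT against 0.567 to 0.699 CPM for KO. The member of lowest p, Alox15 (1.65), overlapped between the groups and was at 2.25 with Xist and -0.59 without. Inflammatory cytokines and chemokines had a median of 0.09 over 38 genes, with 22 above 0 and 16 below, or 0.15 with Xist and -0.05 without. Neutrophil markers had a median of 0.35 over 13 tested of 17 genes with 4 separated upward (30.8%, against 4.03% of all genes). Among these was the granule peptide gene Camp at 0 to 0.141 CPM for WT against 0.172 to 0.354 CPM for KO, with no read in 1 WT library. The summed levels of the list were 212 to 223 CPM for WT against 240 to 271 CPM for KO with R300. None of these genes passed edgeR, and the part of neutrophils in other differences was not tested.

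Cell cycle genes had medians of -0.23 with Xist and 0.36 without over 35 genes, and mesothelial and fibroblast genes had medians of -0.43 and 0.79 over 20; the difference between these subsets was not tested. Mitochondrially encoded transcripts had a difference above 0 for 14 of 15 genes with a median of 0.10, and ribosomal protein genes for 33 of 38 with a median of 0.04.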
